A study of Mus musculus with 2 samples.

Results

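The 10 genes of the Myddosome and of TAK1 signalling (Myd88, Irak1, Irak2, Irak3, Irak4, Traf3, Traf6, Tab1, Tab2 and Map3k7) were examined for peaks of acetylated histone H4 lysine 16 (H4K16ac) in mouse macrophages. The genes were listed by name, and every deposited peak touching a gene (mm10 RefSeq start to end) or the 20 kb on either side was taken. All 10 were found among 21887 protein-coding genes. They held 52 of 58229 peaks in the WT list and 43 of 55149 in the KAT8-cKO list. The cells were primary macrophages grown from bone marrow in M-CSF (20 ng/ml) and given R848, an agonist of the endosomal receptor TLR7, at 100 ng/ml for 2 h in both groups. The genotypes were WT and KAT8-cKO, the latter lacking KAT8, the acetyltransferase responsible for most H4K16ac. The sources used here do not give the allele, the Cre driver, or the age and number of the mice. Each group was 1 CUT&Tag library, so there was no replicate and no test between genotypes, and every difference is between these libraries.

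Toll-like receptors that use MyD88 signal through a helical assembly of death domains, the Myddosome. The adaptor MyD88 recruits the kinase IRAK4, and IRAK4 recruits and activates IRAK1 and IRAK2, while IRAK3 (IRAK-M) restrains the assembly in macrophages. TRAF6 then builds ubiquitin chains that are bound by TAB2, which brings the kinase TAK1 (encoded by Map3k7) and its activator TAB1 to the signal. TRAF3 is a ubiquitin ligase of the same family that directs signalling towards interferon and limits other branches. Most of these genes are expressed in many cell types, whereas Irak3 is mostly found in monocytes and macrophages.

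A peak was classed as an end peak if it came within 1 kb of the start or end coordinate of the gene, a body peak if it touched the rest of the gene, and otherwise a flanking peak. For 9 of the 10 genes the RefSeq promoter table gave the strand and start site, and for Tab1 only the lower and upper end could be told apart. Each peak carries the peak caller's fold over background (column 7) and −log10 q (column 9), both the authors' values. They rank peaks within a list and do not measure a change between lists. The KAT8 gene itself had an end peak in the WT list only (fold 2.46, −log10 q 0.780), which does not show whether it was deleted. Of 10 macrophage genes 9 had an end peak in WT and 6 in KAT8-cKO, as did 2 of 7 genes of other cells in each list, where the shares over all protein-coding genes were 46.8% in WT and 43.3% in KAT8-cKO. Among the macrophage genes, Itgam had none in WT, and Csf1r, Adgre1 and Fcgr1 were among those with none in KAT8-cKO. Only Cd14, Mertk and Cd68 reached q under 0.05 in WT, and only Spi1, Itgam and Mertk in KAT8-cKO. Of these genes only Cd14 had overlapping end peaks. S100a8, a gene of other cells, had overlapping end peaks too (WT fold 3.42, −log10 q 2.17). In WT only Mertk among the macrophage genes exceeded it, so these counts do not establish the cell type.

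The 250 bases before 7 start sites are shown because these genes differ in whether a peak covered the start site in both lists, in WT only or in neither. The sequences are from RefSeq (GRCm38.p6, the assembly behind mm10). Irak4 (chr15:94543410-94543659, plus strand), Map3k7 (chr4:31963857-31964106, plus) and Traf6 (chr2:101678170-101678419, plus) had a start site covered by a peak in both lists. Irak1 (chrX:74023922-74024171, minus) and Irak3 (chr10:120201598-120201847, minus) had one covered in WT only. Myd88 (chr9:119340019-119340268, minus) and Traf3 (chr12:111166120-111166369, plus) had no peak over the start site in either list. Of the genes not shown, Irak2 had its start site covered in KAT8-cKO only, with 199 of the 250 bases before it under that peak. Tab2, also not shown, had its upstream start site covered in WT only. Capitals mark matches on either strand to 7 short motifs that were searched: a GC box (GGGCGG), an ETS core (CCGGAA), a CRE core (TGACGT), an E-box (CACGTG), the TATA box (TATAAA), an interferon response-like element (GAAANNGAA) and an NF-κB-like element (GGNNTTTCC).
Irak4: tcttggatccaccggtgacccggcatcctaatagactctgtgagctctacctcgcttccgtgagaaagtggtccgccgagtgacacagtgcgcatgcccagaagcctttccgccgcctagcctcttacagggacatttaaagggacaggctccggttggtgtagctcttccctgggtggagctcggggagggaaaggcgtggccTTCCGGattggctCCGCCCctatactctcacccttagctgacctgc
Map3k7: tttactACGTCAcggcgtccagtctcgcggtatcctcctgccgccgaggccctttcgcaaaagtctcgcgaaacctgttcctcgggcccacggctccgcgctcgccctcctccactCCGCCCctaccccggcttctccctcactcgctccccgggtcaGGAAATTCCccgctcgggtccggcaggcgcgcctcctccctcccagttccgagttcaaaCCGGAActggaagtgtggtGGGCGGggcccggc
Traf6: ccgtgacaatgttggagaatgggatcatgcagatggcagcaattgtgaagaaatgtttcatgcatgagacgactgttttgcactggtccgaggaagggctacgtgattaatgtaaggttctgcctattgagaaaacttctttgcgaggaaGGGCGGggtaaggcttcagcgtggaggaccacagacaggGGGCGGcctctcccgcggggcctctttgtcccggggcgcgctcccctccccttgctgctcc
Irak1: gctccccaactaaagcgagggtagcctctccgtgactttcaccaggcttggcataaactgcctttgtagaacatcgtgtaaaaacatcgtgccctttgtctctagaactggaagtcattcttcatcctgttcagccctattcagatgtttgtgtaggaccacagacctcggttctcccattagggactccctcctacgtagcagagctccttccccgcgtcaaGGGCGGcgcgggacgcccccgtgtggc
Irak3: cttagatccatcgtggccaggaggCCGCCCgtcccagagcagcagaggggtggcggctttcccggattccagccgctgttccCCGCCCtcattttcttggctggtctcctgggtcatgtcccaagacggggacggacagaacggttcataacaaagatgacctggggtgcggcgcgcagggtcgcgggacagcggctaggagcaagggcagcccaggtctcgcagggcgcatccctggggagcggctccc
Myd88: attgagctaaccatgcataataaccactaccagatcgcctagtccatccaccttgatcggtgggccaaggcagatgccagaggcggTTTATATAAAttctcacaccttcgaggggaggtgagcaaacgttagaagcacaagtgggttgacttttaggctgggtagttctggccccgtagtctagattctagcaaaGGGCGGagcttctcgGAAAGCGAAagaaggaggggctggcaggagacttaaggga
Traf3: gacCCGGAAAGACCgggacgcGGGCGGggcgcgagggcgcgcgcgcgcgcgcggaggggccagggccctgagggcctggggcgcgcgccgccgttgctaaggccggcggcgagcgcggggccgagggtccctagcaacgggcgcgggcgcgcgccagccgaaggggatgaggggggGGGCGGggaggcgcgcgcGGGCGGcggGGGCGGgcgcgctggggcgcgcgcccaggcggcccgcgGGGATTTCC

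WT peaks covered all 250 bases shown for Irak4, Map3k7 and Traf6, 184 of those for Irak3 and 76 of those for Irak1. KAT8-cKO peaks covered all of those for Irak4 and Map3k7 and 156 of those for Traf6. Neither list covered any of the bases shown for Myd88 or Traf3. A GC box was found before a start site of 8 of the 9 genes, all but Irak2, and in 42.6% of 21263 windows of the same length before start sites of protein-coding genes. A gene counts here if any of its windows matches (12 windows for the 9 genes), so gene counts and shares of windows are unlike measures. The NF-κB-like letters stood before Map3k7 and Traf3 and in 4.90% of all windows. In Traf3 the match nearest the gene ended at the last base before the start site, and the other overlapped the ETS match. The interferon response-like letters stood before Myd88, 40 to 32 bases from the start, and before the upstream start site of Irak3, and in 6.84% of all windows. Myd88 also held overlapping TATA box letters on both strands (11.6% of windows). ETS letters were found before Irak4, Map3k7 and Traf3 (15.0%), CRE letters before Map3k7 (7.37%), and the E-box before none of the 9 (6.63%). These matches are letters in a window and not sites shown to be bound.

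All 10 genes had an H4K16ac end peak in WT and 7 had one in KAT8-cKO. The shares over all protein-coding genes were 46.8% and 43.3%. The 7 genes marked in both lists (35.8% of all genes) were Myd88, Irak4, Irak2, Traf6, Tab1, Tab2 and Map3k7. Irak1, Irak3 and Traf3 were marked in WT only (11.1% of all genes), and 0 genes in KAT8-cKO only (7.52%). Thus 3 of 10 genes with a WT end peak had none in KAT8-cKO, against 23.6% of all genes with a WT end peak, and 10 genes are too few to tell these shares apart.

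Being marked in both lists did not mean being marked at the same place. At 4 of the 7 genes, Irak4, Traf6, Tab2 and Map3k7, an end peak of WT overlapped an end peak of KAT8-cKO, while at Myd88, Irak2 and Tab1 none did. Of all genes marked in both lists, 90.9% had overlapping end peaks, or 32.5% of all protein-coding genes. In WT all 9 genes of known strand had a peak at the start, with 2 further peaks at the 3′ ends of Irak4 and Map3k7 and 1 at the lower end of Tab1. In KAT8-cKO 5 genes had a peak at the start, with 1 peak at the 3′ end of Myd88 and 1 at the upper end of Tab1. At Myd88 a KAT8-cKO peak that overlapped the WT start peak began 1047 bp from the start site, just outside the 1 kb window. The share of all genes with a peak at the start side is not given here, so these counts have no background. A peak covered the start site itself in 6 of 9 genes in WT (33.9% of 17492 genes) and in 4 of 9 in KAT8-cKO (26.7%). It did so in both lists at Irak4, Traf6 and Map3k7.

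**Figure D1:**
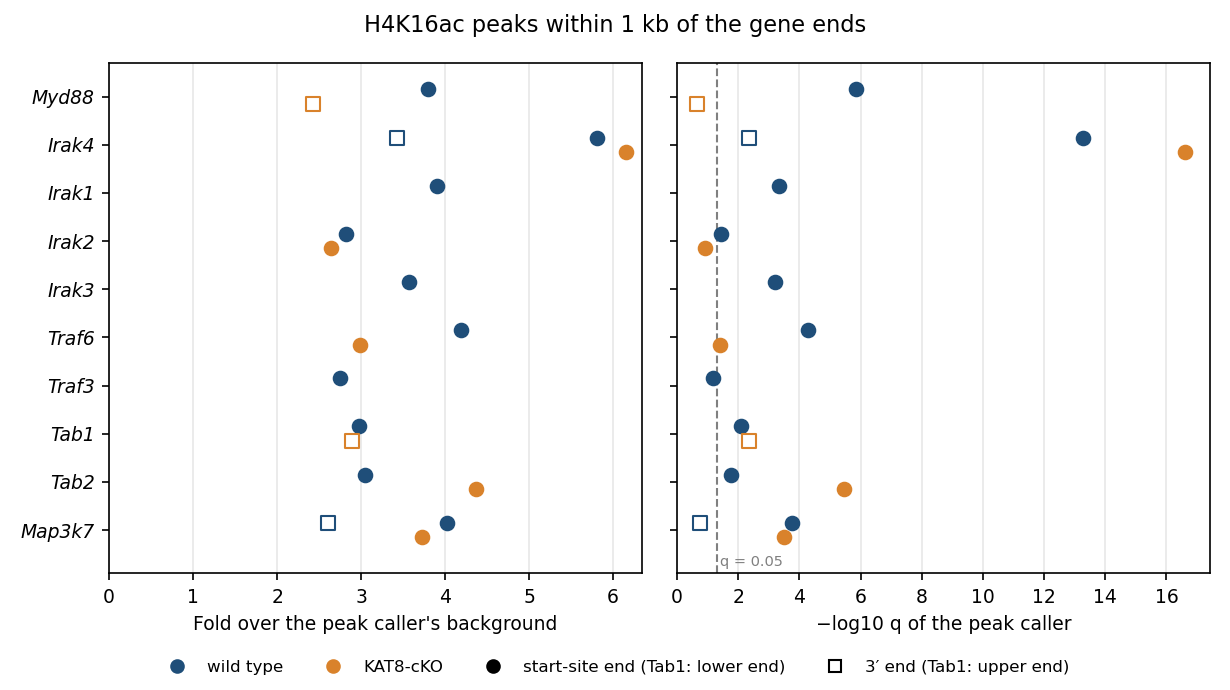
Every end peak of the 10 genes, with its fold over the peak caller's background (left, linear axis) and its −log10 q (right, linear axis), for the 1 WT library (blue) and the 1 KAT8-cKO library (orange). Filled circles are peaks at the start (lower end for Tab1), open squares peaks at the 3′ end (upper end for Tab1), and the dashed line is q = 0.05. Irak4 has the highest values in both lists, and no orange symbol stands at Irak1, Irak3 or Traf3.

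Myd88 (chromosome 9, 119335934 to 119340018), the adaptor that nucleates the Myddosome, had no peak over its own start site in either list. Its WT end peak (fold 3.79, −log10 q 5.85) began 929 bp upstream of the start site, inside the neighbouring gene Acaa1a and within 1 kb of an end of it. The KAT8-cKO list had a peak at the same place (fold 2.63, −log10 q 1.28) that began 1047 bp from the start site and so fell just outside the 1 kb window. The 2 peaks shared 392 bp, and their summits were 86 bp apart. The peak that marked Myd88 in KAT8-cKO was a different and weak one at the 3′ end of the gene (fold 2.42, −log10 q 0.663), with no WT peak over it. The assignment of Myd88 to both lists therefore rested on peaks at opposite ends. The strongest flanking peak lay in Oxsr1, 12569 bp past the 3′ end of Myd88, with a fold of 4.43 in WT and 3.83 in KAT8-cKO.

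Irak4 (chromosome 15, 94543613 to 94568317), the first kinase recruited by MyD88, had the strongest end peak of the 10 genes in both lists. It covered the start site and all 250 bases printed above. Its fold was 5.81 in WT and 6.16 in KAT8-cKO, and its −log10 q was 13.3 and 16.6. The KAT8-cKO peak was 1118 bp wide and held the whole of the 940 bp WT peak. By −log10 q the WT peak was above 97.9% of WT end peaks and the KAT8-cKO peak above 99.7% of KAT8-cKO end peaks. The same peak lay at an end of Pus7l, so it cannot be assigned to Irak4 alone. A second WT end peak at the 3′ end (fold 3.42, −log10 q 2.37) had no KAT8-cKO counterpart. Inside the gene, WT had 1 peak and KAT8-cKO had 3, and a single pair of them touched, over 26 bp.

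Irak1 (chromosome X, 74013914 to 74023921), the kinase phosphorylated by IRAK4, had a WT peak of 329 bp over its start sites (fold 3.91, −log10 q 3.33). The peak also touched the gene of the microRNA Mir718. No KAT8-cKO peak touched it. With end windows of 3 kb in place of 1 kb, Irak1 was marked in both lists. Irak1 is the only X-linked gene of the 10. Of 179 X-linked genes with a WT end peak 54.7% had none in KAT8-cKO, against 23.0% of 10057 autosomal genes. The part of chromosome X in the result at Irak1 was not tested.

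Irak2 (chromosome 6, 113638467 to 113695026), a kinase that sustains the late response, was marked at its start in both lists by weak peaks that did not touch. The WT peak began 107 bp inside the gene (fold 2.82, −log10 q 1.43). The KAT8-cKO peak, 200 bp wide, ended on the start site (fold 2.64, −log10 q 0.902) and did not reach q under 0.05. Irak2 had the most peaks of the 10 genes, 11 in WT and 9 in KAT8-cKO, of which 5 and 4 lay in the body. Only 1 body peak was common to both, 28969 bp from the start in WT, with a fold of 2.81 in WT and 2.30 in KAT8-cKO. The strongest WT body peak, 48472 bp from the start (fold 3.71, −log10 q 3.65), had no KAT8-cKO peak over it.

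Irak3 (chromosome 10, 120141648 to 120202130), which encodes the inhibitory IRAK-M, showed the widest difference in the number of peaks, with 7 in WT and 2 in KAT8-cKO. Its WT start peak was 525 bp wide (fold 3.57, −log10 q 3.19) and covered the downstream of its 2 start sites, but not the upstream one. A noncoding gene, Gm38500, also has an end there. WT also had 3 body peaks, the strongest at fold 3.38 (−log10 q 2.15), while KAT8-cKO had 0 peaks at the ends and in the body. None of the 7 WT peaks was overlapped by a KAT8-cKO peak. Both KAT8-cKO peaks were flanking, and the stronger lay at Tmbim4 (fold 2.99, −log10 q 1.41).

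**Figure D2:**
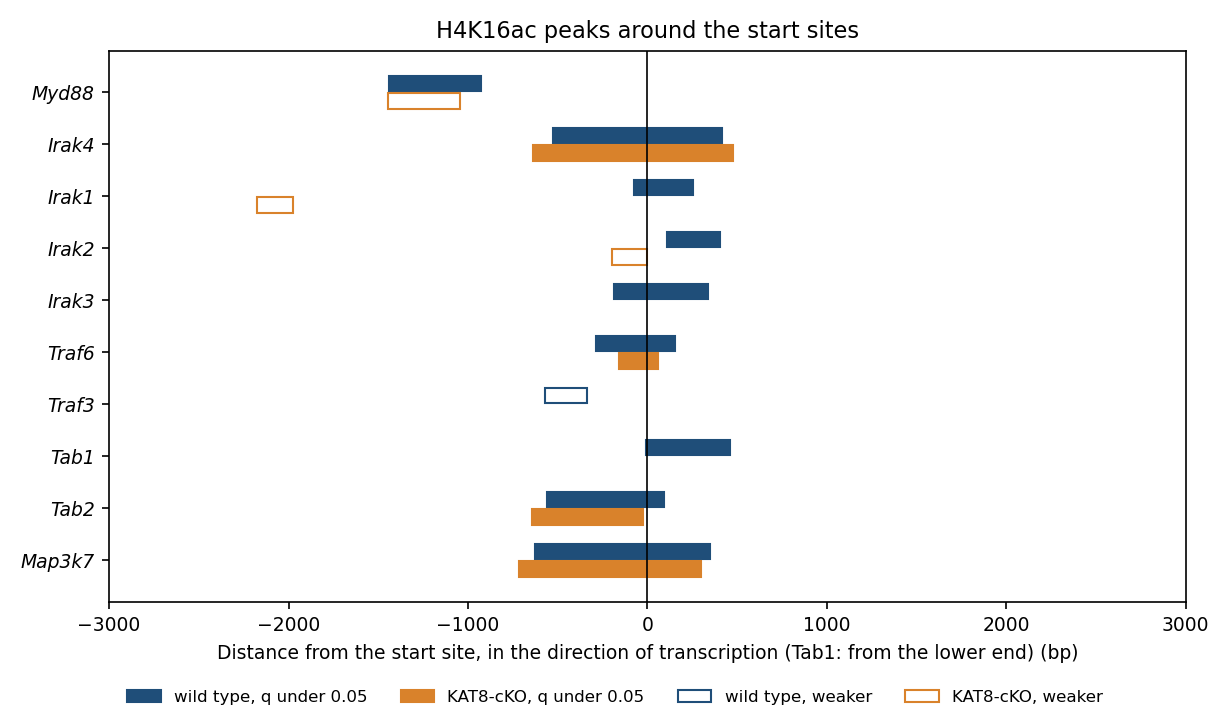
Peaks within 3000 bp of the start site (the upstream one of Irak1 and Tab2 and the downstream one of Irak3) on the horizontal axis, in the direction of transcription, or of the lower end for Tab1. Blue bars are WT and orange bars KAT8-cKO, each bar being 1 peak drawn to scale, filled where q was under 0.05 and open where it was not. Bars of both colours overlap across the start at Irak4, Traf6 and Map3k7 and beside it at Tab2, and at Myd88 both lie about 1 kb upstream.

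Traf6 (chromosome 2, 101678420 to 101701668), the ligase that makes the chains read by TAB2, had a single peak in each list, and both covered its start site. The WT peak was 441 bp wide (fold 4.19, −log10 q 4.28). The KAT8-cKO peak was 215 bp wide and lay entirely within it (fold 2.99, −log10 q 1.41, just past q = 0.05). By −log10 q the former exceeded 74.4% of WT end peaks and the latter 38.4% of KAT8-cKO end peaks. When only the strongest 20000 peaks of each list were kept, Traf6 was marked in WT only. The body and both flanks of Traf6 held 0 peaks in either list.

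Traf3 (chromosome 12, 111166321 to 111267155), the longest of the 10 genes, had only a weak WT end peak, 339 bp upstream of the start site (fold 2.75, −log10 q 1.18), and none in KAT8-cKO. That WT peak did not reach q under 0.05. The body held 2 WT and 4 KAT8-cKO peaks, none of which overlapped. A flanking peak 6361 bp upstream, at an end of the noncoding gene 4930595D18Rik, was listed in both. Its fold was 3.14 and −log10 q 1.92 in WT, and 4.06 and 4.10 in KAT8-cKO, where it was the strongest peak of the Traf3 region.

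Tab1 (chromosome 15, 80133127 to 80161707), the activating partner of TAK1, was marked at opposite ends. The WT peak covered the lower end (fold 2.97, −log10 q 2.10) and the KAT8-cKO peak lay 559 bp beyond the upper end (fold 2.89, −log10 q 2.37). Neither was overlapped by a peak of the other list. A body peak near the middle of the gene was common to both lists, with a fold of 2.48 in WT and 2.70 in KAT8-cKO, and reached q under 0.05 in neither.

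Tab2 (chromosome 10, 7905648 to 7956255), the ubiquitin-binding partner of TAK1, was one of the genes with a higher fold listed in KAT8-cKO than in WT. The folds of the start peaks were 3.05 in WT and 4.37 in KAT8-cKO, and their −log10 q 1.77 and 5.45, the latter above 91.1% of KAT8-cKO end peaks. They shared 536 bp. The WT peak covered the upstream start site, whereas the KAT8-cKO peak stopped 27 bp short of it on the upstream side. A shared flanking peak past the 3′ end had the opposite order, with a fold of 3.85 in WT and 2.56 in KAT8-cKO.

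Map3k7 (chromosome 4, 31963492 to 32023470), which encodes TAK1 itself, had the most WT peaks overlapped by a KAT8-cKO peak, 4 of 7. Its start peak covered the start site in both lists, was 976 bp wide in WT and 1017 bp in KAT8-cKO, and shared 925 bp. The fold was 4.03 in WT and 3.73 in KAT8-cKO, with −log10 q of 3.77 and 3.49. All 3 WT body peaks were overlapped by KAT8-cKO peaks, and 2 of the 3 KAT8-cKO body peaks by WT peaks. A weak WT peak 883 bp inside the 3′ end (fold 2.61, −log10 q 0.759) had no counterpart.

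Over the 10 genes the strongest WT end peak had a fold of 2.75 to 5.81 (median 3.68). Over the 7 marked genes of KAT8-cKO it was 2.42 to 6.16 (median 2.99). Counting each end peak, 10 of 12 in WT and 5 of 7 in KAT8-cKO had q under 0.05. The share over all end peaks is not given here. Their median −log10 q was 2.17 in WT and 1.75 in KAT8-cKO, so most end peaks of each list also had q under 0.05. The median fold over all 12 WT end peaks of these genes was 3.50, against 3.18 over all end peaks of the WT list. Over the 7 of KAT8-cKO it was 2.99, against 2.99.

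Counted by position, WT had 12 end, 17 body and 23 flanking peaks at the 10 genes, and KAT8-cKO had 7, 15 and 21. The median number of peaks per gene was 5 in WT and 4 in KAT8-cKO, against 3 in both lists over all genes. Per 10 kb of gene and flank the medians were 0.698 and 0.534, against 0.431 and 0.383 over all genes. Traf6 was the sparsest in both lists (0.158 per 10 kb). Peaks with q under 0.05 numbered 28 of 52 in WT (49.7% over all genes) and 18 of 43 in KAT8-cKO (47.4%). Of the flanking peaks, 5 of 23 in WT and 7 of 21 in KAT8-cKO lay within 1 kb of an end of another protein-coding gene, among them Oxsr1, Tatdn2 and Amn. The share over all flanking peaks is not given here, so these counts have no background.

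Of the 52 WT peaks 18 were overlapped by at least 1 bp of a KAT8-cKO peak, 34.6% (95% Wilson interval 23.2 to 48.2), against 36.0% when all genes and their flanks were counted the same way. Of the 43 KAT8-cKO peaks 17 were overlapped by a WT peak, 39.5% (26.4 to 54.4), against 40.1%. These intervals cover counting error over peaks only. At the gene ends the overlap was 5 of 12 WT peaks (41.7%, 19.3 to 68.0, against 62.1%) and 4 of 7 KAT8-cKO peaks (57.1%, 25.0 to 84.2, against 69.1%). In the gene bodies it was 6 of 17 (background 26.6%) and 5 of 15 (28.5%). In the flanks it was 7 of 23 (34.0%) and 8 of 21 (39.0%). Peaks with q under 0.05 overlapped in 15 of 28 cases in WT (53.1%) and 9 of 18 in KAT8-cKO (56.9%). Weaker peaks did so in 3 of 24 (19.1%) and 8 of 25 (25.0%). In each of these classes the background share lay within the interval of the share at the 10 genes.

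**Figure D3:**
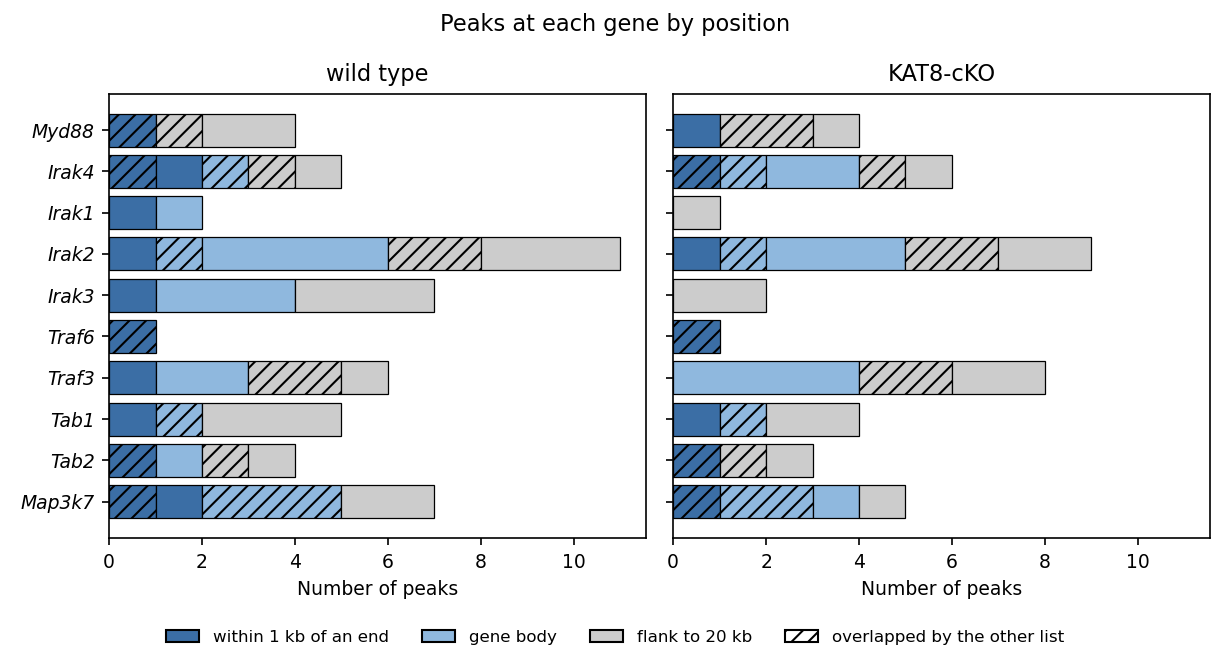
Number of peaks at each gene in WT (left) and KAT8-cKO (right), divided into end peaks (dark blue), body peaks (light blue) and flanking peaks to 20 kb (grey), with hatching where a peak is overlapped by the other list. Irak2 has the most peaks (11 and 9), Traf6 has 1 hatched peak in each list, and Irak1 and Irak3 have no hatched peak.

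The base composition before the start sites differed widely among the genes. The 250 bases held 49 CpG dinucleotides in Traf3, more than 99.8% of all such windows, 33 before the upstream start site of Tab2, 28 in Map3k7 and 19 before the downstream start site of Irak3. They held 14 in Irak4, 14 and 13 before the start sites of Irak1, 13 in Traf6, 12 in Irak2 and 9 in Myd88, against a median of 10 over all windows. Of windows with 24 to 26 CpG, the group with the highest shares, 59.4% had their start site covered in WT and 49.3% in KAT8-cKO. None of the genes examined falls in that group. With 12 to 14 CpG, as in Irak4, Irak1, Traf6 and Irak2, the shares were 47.15% and 36.7%. With 9 to 11, as in Myd88, they were 35.4% and 25.7%. In windows with 0 to 2 CpG the shares were 2.79% and 1.87%, and in those with 45 or more, to which Traf3 belongs, 40.5% and 21.6%. Start sites covered in both lists had a median of 18 CpG, and those covered in neither had 5. Myd88 and Traf3, both without a peak over the start, therefore had CpG counts on opposite sides of those of Irak4, Traf6 and Map3k7.

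**Figure D4:**
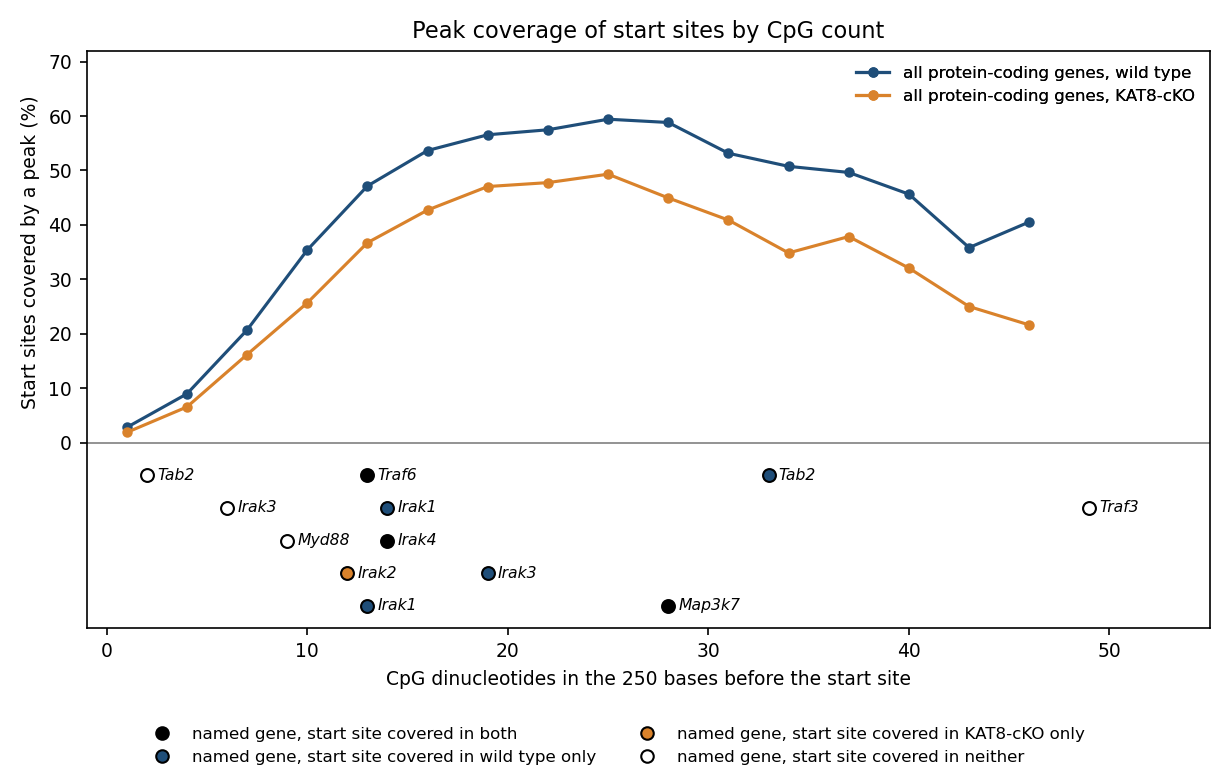
Percentage of start sites of all protein-coding genes covered by a peak (vertical axis) against the number of CpG dinucleotides in the 250 bases before the start site (horizontal axis, groups of 3, the last group being 45 or more), for WT (blue line) and KAT8-cKO (orange line). Circles under the zero line place the start sites of the 9 genes by CpG count only and are black if covered in both lists, blue in WT only, orange in KAT8-cKO only and white in neither. Traf3 stands at 49 CpG and Myd88 at 9, both white.

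Of 32 other genes of the path from TLR7 to NF-κB and the MAP kinases, 25 had an end peak in both lists, 3 in WT only, 0 in KAT8-cKO only and 4 in neither. Over all protein-coding genes the shares were 35.8% in both lists, 11.1% in WT only and 7.52% in KAT8-cKO only. Tab3, the paralogue of Tab2 on chromosome X, had a WT end peak (fold 4.89, −log10 q 6.05) and no KAT8-cKO peak in its region. Tnfaip3, which encodes the deubiquitinase A20 that removes TRAF6-made chains, had a WT fold of 3.40. Slc15a4, a transporter needed for endosomal TLR signalling, had a WT fold of 3.18. The highest WT folds among genes marked in both lists were at Ikbkg (6.35), which encodes the NEMO subunit of the IκB kinase, Peli1 (5.84), a ubiquitin ligase that acts with IRAKs, and Mapk8 (5.42), which encodes the kinase JNK1. Their KAT8-cKO folds were 2.56 (−log10 q 0.663, not reaching q under 0.05), 3.84 and 4.48. The 3 genes were picked by their WT fold, which favours a lower KAT8-cKO fold, so they do not describe the other genes. Some of those, such as Map2k4 (3.18 in WT and 4.06 in KAT8-cKO), had the opposite order. Ikbkg, like Irak1 and Tab3, lies on chromosome X, where WT end peaks more often had no KAT8-cKO end peak at the same gene. The part of chromosome X in the values at Ikbkg and Tab3 was not tested. End peaks of both lists overlapped at 23 of the 25 genes, where the share over all genes marked in both was 90.9%.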

How the data were processed

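H4K16ac was profiled by CUT&Tag in 2 libraries, 1 WT and 1 KAT8-cKO, grouped by the genotype label. The submitters' processing notes name build mm10, DiffBind, MACS2 2.2.7.1 and Bowtie 0.12.8 without saying what each did. The sources used here give no peak settings, control library or read totals, so depth is unknown. The deposited lists, 1 per library, give for each peak a fold over background (a ratio), −log10 p and −log10 q, the p-value and q-value being the peak caller's, a score that is 10 times −log10 p, and the summit offset. All deposited peaks were used, with no filter for regions prone to artefact.

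Gene coordinates were those of RefSeq on GRCm38.p6 (protein-coding, chromosomes 1 to 19, X and Y) and start sites from a RefSeq promoter table, which held 9 of the 10 genes. End peaks lay within 1 kb of an annotated end, and flanks reached 20 kb. Overlap meant at least 1 bp. Background shares apply the same rules to every protein-coding gene, so a peak near several genes counts for each. Shares carry 95% Wilson intervals. The members, lists and motifs were chosen with earlier results of these data known. All 10 members are named; of the 32 other pathway genes, those marked in a single list and the 3 with the highest WT fold among the rest are named. Alternatives covered thresholds, overlap and windows. Code was checked on simulated intervals and used Python 3.11.15, pandas 2.3.3 and scipy 1.17.1.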

Additional observations from a re-analysis of the deposited data

How the results depend on the processing

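No paired analysis was possible because each genotype is 1 library and the labels give no replicate numbers, so no library could be left out either. Of 69 values under other settings, 31 stayed within 1.5 times the main count, or within the main interval for a share, and 38 did not; the cause was not tested beyond what each setting removes. With q under 0.05 in both lists, 1 of the 10 genes (Traf3) had no end peak, and Irak2 and Myd88 were marked in WT only. Of all genes 25.3% were then marked in both lists, 11.6% in WT only, 1316 of 21887 in KAT8-cKO only and the rest in neither. The peak counts fell to 28 in WT and 18 in KAT8-cKO, and the 32 pathway genes to 15 in both lists, 11 in WT only and 1 in KAT8-cKO only. At a −log10 q of at least 5, 1 gene was marked in both lists (Irak4), 1 in WT only (Myd88), 1 in KAT8-cKO only (Tab2) and 7 in neither. This setting left 3 WT and 2 KAT8-cKO peaks. Of all genes 4.59% were then marked in both, 7.85% in WT only, 307 of 21887 in KAT8-cKO only and the rest in neither. Pathway genes were then 3, 7, 2 and 20 in the same order. With the strongest 20000 peaks of each list, 4 genes were marked in both lists (Irak4, Map3k7, Tab1 and Tab2) and 2 in neither (Irak2 and Traf3). Traf6 and Myd88 became WT only (all genes: 22.3% in both, 10.7% in WT only, 1247 of 21887 in KAT8-cKO only, the rest in neither). This setting left 20 WT and 11 KAT8-cKO peaks, and 63.6% of the latter were overlapped. The overlap share over all genes at this setting is not given here. Pathway genes were then 12, 9, 2 and 9. With end windows of 500 bp, 1 gene (Myd88) was marked in KAT8-cKO only, Tab1 became WT only, and 5 pathway genes were marked in WT only. Over all genes 31.3% were then marked in both lists, 10.4% in WT only and 1394 of 21887 in KAT8-cKO only. With 3 kb, Irak1 was marked in both lists, and 2 pathway genes were marked in neither (all genes: 46.75% in both, 11.4% in WT only). Flanks of 5 kb held 33 WT and 26 KAT8-cKO peaks, and flanks of 50 kb held 85 and 78. When an overlap had to cover 50% of both peaks, 17.3% of WT and 20.9% of KAT8-cKO peaks were overlapped, with no share over all genes given here for that rule. The remaining settings were chosen after seeing the data. In the promoter window (250 bases before to 50 after a start site) 4 of 9 genes were marked in both lists, 1 in KAT8-cKO only (Irak2) and 2 in neither (Myd88 and Traf3). The share over all genes for this window is not given here. Counting only overlapping end peaks, 4 genes were marked in both lists (32.5% of all genes). The q-values depend on the depth of each library, which is unknown.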

Other observations

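These values were picked out after all values had been seen. Of the pathway genes with no end peak in either list, Tlr7, the receptor that recognises R848, had 1 peak in its region in WT and 0 in KAT8-cKO. Tlr7 lies on chromosome X, as Irak1 does, and the part of chromosome X was not tested here either. The region of Ikbke, which encodes a kinase related to TBK1, held 8 WT and 5 KAT8-cKO peaks away from the gene ends, and that of Map2k6, a kinase that activates p38, held 3 and 5. Peli2, a ubiquitin ligase of the Pellino family, had more peaks in its region than any of the 10 Myddosome and TAK1 genes, 12 in WT and 16 in KAT8-cKO, yet its end peaks did not overlap (folds 3.18 and 2.35). These region counts are not given per 10 kb, so they do not allow for the length of each gene. Ube2n, the ubiquitin-conjugating enzyme that works with TRAF6, had overlapping end peaks with folds of 4.44 in WT and 4.51 in KAT8-cKO. Cyld, which encodes a deubiquitinase of the same chains, had folds of 3.93 and 4.70.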
